A study of Bos taurus with 6 samples.

Results

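The sequences described here are the newly predicted miRNAs of 21 to 25 nt in serum extracellular vesicles (EVs) of Holstein cows. The rule used name and length alone, taking the listed sequences whose name carries the prefix given to predictions (as in novel34_mature) and which have at least 21 nt. It used no measured level. This gave 82 of the 706 sequences listed. The remainder were 158 newly predicted sequences of 18 nt, 107 of 19-20 nt and 359 known bovine miRNAs, of which 333 had 21-25 nt. Among the 82, 42 (51.2%) had 21 nt, 24 had 22 nt, 4 had 23 nt, 6 had 24 nt and 6 had 25 nt. The names mark 72 as the mature arm and 10 as the star arm of a predicted hairpin, and 4 were listed under more than 1 hairpin.

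All 6 cows were female Holsteins in mid lactation (101 ± 10 days in milk), and their age was not given in the sources used here. The 3 cows of the control group ate a total mixed ration. The 3 cows of the tested group ate, for 30 days, a ration in which whole cotton seed and soybean hull took the place of part of the alfalfa hay. Blood was drawn once per cow at the end, so each library is 1 animal and the state of the same cow before the diet was not analysed here. EVs were taken from serum with a membrane-affinity kit, and small RNAs of 1 library per cow were sequenced.

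A miRNA is cut from a hairpin precursor, first by Drosha in the nucleus and then by Dicer in the cytoplasm. Dicer leaves a duplex of a mature and a star strand, each about as long as the sequences described here, and 1 strand is usually kept in the Argonaute protein. Bases 2 to 8 of that strand form the seed, which pairs with target mRNAs. A newly predicted miRNA is a stretch of the genome where small RNA reads pile up on a sequence that can fold into such a hairpin. Serum also carries fragments of other RNAs, among them transfer RNAs (tRNAs), whose mature 3′ end carries the added bases CCA.

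The first sequences shown are the 5 that end in CCA, because they include the most abundant sequence of all 82. Each is written 5′ to 3′ with the closing CCA in capitals.
novel34_mature: cgtttcctggccaatgcaCCA
novel221_mature: agtttcccgtccaatgcaCCA
novel183_mature: agtttcccggccaatgcgCCA
novel3_mature: cccaccaggcttctctgtCCA
novel240_mature: cccaccagactcctccgtCCA
They fell into 2 groups of near-identical sequence. Counting positions from the 5′ end, with the base of the first-named sequence written first, novel221_mature differed from novel34_mature by A1C, C8T and T10G, and novel183_mature differed from novel34_mature by A1C, C8T and G18A. Likewise, novel240_mature differed from novel3_mature by A9G, C12T and C16T. Reads of such similar sequences can be assigned to the wrong member, and whether this affected the counts of the rarer members was not tested. A closing CCA was present in 5 of 82 sequences (6.10%) and in 19 of all 706 (2.69%), in 5 of the 107 newly predicted sequences of 19-20 nt (4.67%), 6 of the 158 of 18 nt (3.8%) and 3 of the 333 known miRNAs of 21-25 nt. These 5 sequences held 85.1% of the counts of the 82, and novel34_mature alone held 83.9%.

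The next sequences carry the consensus of an internal promoter element of tRNA genes, the B box (GGTTCGANTCC) or the A box. The matched stretch is in capitals.
novel37_mature: agagggcatgGGTTCGAATCC
novel310_mature: actcggTAGCTCAGCTGGtaaa
The B box consensus occurred in 1 of the 706 listed sequences, novel37_mature, and the form of the A box searched in 4 (0.567%). That form was strict and of fixed spacing. Looser forms of the A box were not searched, so other sequences may carry one. Only the listed strand was searched, and the motifs and the CCA end were chosen after the sequences had been seen. A match is a property of the letters and does not say from which RNA the reads came.

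Some sequences consisted mostly of G and C, and 4 of them are shown because results below refer to them or because they were among the more abundant. The longest run of G and C is in capitals.
novel114_mature: CGCCCCCCGCGCCCGCCCGCG
novel321_mature: tGGGGGCGCGCGGGCGGGGCG
novel301_mature: ggtGGGGGGGGCGGCGGGacc
novel77_mature: acccccgctccaCCCCGCGCC
The median GC content of the 82 sequences was 60.0% (range 28.6% to 100%). It was 45.5% for known miRNAs of 21-25 nt, 63.2% for newly predicted sequences of 19-20 nt and 66.7% for those of 18 nt. GC content reached 75% in 15 of 82 sequences (18.3%), and in 1.80% of the known miRNAs of the same length. The first base was T, the DNA letter for U, in 26 of 82 (31.7%), against 48.3% of the known miRNAs of 21-25 nt, 25.2% of newly predicted sequences of 19-20 nt and 13.9% of those of 18 nt. Many known animal miRNAs begin with U.

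The 6 libraries held 1277693 to 2176002 counts over all listed sequences, and the 82 sequences held 170236 counts, 1.54% of the total. Their share of all counts in control cows 1, 2 and 3 was 1.73% (95% Wilson interval 1.71 to 1.75), 1.57% (1.56 to 1.59) and 1.82% (1.81 to 1.84). In tested cows 1, 2 and 3 it was 1.24% (1.22 to 1.26), 1.14% (1.13 to 1.16) and 1.61% (1.60 to 1.63). The highest tested cow exceeded the lowest control cow, so the groups overlapped. The mean share was 1.71% ± 0.128 for control cows, against 1.33% ± 0.248 for tested cows (SD, n = 3 each, two-sided exact permutation p = 0.2). Relative to other totals the groups did not overlap. The sequences took 52.9% to 68.3% of the counts of newly predicted miRNAs in control cows, against 31.2% to 52.2% in tested cows, and 0.193% to 0.338% of the clean reads, against 0.110% to 0.182% (exact permutation p = 0.1 for each). With 3 libraries against 3, the smallest p this test can give is 0.1. The first of these separations was narrow, between 52.2% and 52.9%. The second also depends on how many clean reads were counted on listed sequences. Clean reads numbered 11048676 to 14270662 in control cows and 12052480 to 24187264 in tested cows. Counts over all listed sequences were 1589334 to 2066965 and 1277693 to 2176002. The part of these totals in the differences was not tested. The intervals cover counting error only, since amplified reads without molecular identifiers are not independent molecules.

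This share was mainly that of novel34_mature, which held 142861 counts, 83.9% of those of the 82 sequences, and ranked 18 among all 706 by mean share. It took 1.50%, 1.38% and 1.63% of all counts in control cows 1 to 3, and 0.941%, 0.981% and 1.20% in tested cows 1 to 3. Every tested cow was below every control cow. The control mean was 1.50% ± 0.125 and the tested mean 1.04% ± 0.141 (SD, n = 3 each, exact permutation p = 0.1). The other 81 sequences together took 0.237%, 0.188% and 0.191% of all counts in control cows 1 to 3, against 0.300%, 0.160% and 0.409% in tested cows 1 to 3. Here tested cow 2 was the lowest library and tested cow 3 the highest. The means were 0.205% ± 0.0275 and 0.290% ± 0.125 (SD, n = 3 each, exact permutation p = 0.4), so without novel34_mature the difference between the groups pointed the other way and was smaller than the spread between the tested cows.

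**Figure D1:**
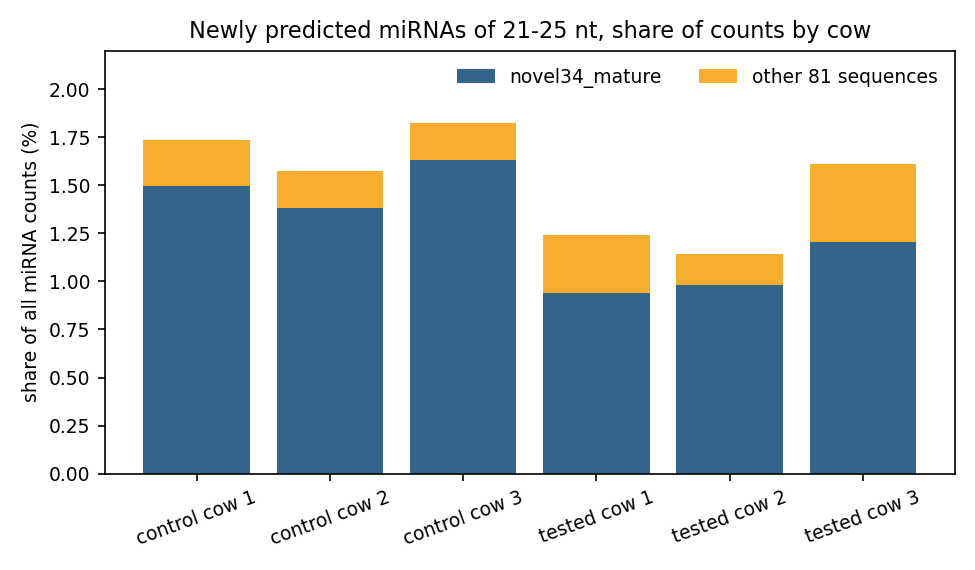
Share of all counts (percent, linear axis from 0) in each library as stacked bars for novel34_mature and for the other 81 newly predicted sequences of 21-25 nt. The 3 tested cows were below the 3 control cows for novel34_mature, whereas the groups overlapped for the other sequences.

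The sequences differed in how many libraries held them. Of the 82, 23 (28.0%) had a count in all 6 libraries, 9 in 5, 7 in 4, 12 in 3, 22 in 2 and 9 in 1. The share present in all 6 libraries was 41.1% for newly predicted sequences of 19-20 nt, 36.7% for those of 18 nt and 50.2% for known miRNAs of 21-25 nt. Abundance differed as well, with a median total of 42 counts for the 82 sequences, 73 and 85.5 for the 19-20 nt and 18 nt sequences, and 134 for the known miRNAs. A single library held at least 90% of the counts in 24 of the 82 (29.3%), compared with 19.6%, 17.7% and 26.1% in those 3 classes. The libraries that held these counts included every cow, with 5, 6 and 4 such sequences in control cows 1 to 3 and 4, 2 and 3 in tested cows 1 to 3.

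Sequences with at least 1 count numbered 45, 50 and 46 in control cows 1 to 3 and 53, 57 and 49 in tested cows 1 to 3 (47.0 ± 2.65 against 53.0 ± 4.0, SD, n = 3 each, exact permutation p = 0.2). Some of these detections were of 1 count. Such single counts numbered 9, 10 and 6 in control cows, against 16, 11 and 2 in tested cows, with the most in tested cow 1, the library with the lowest total. At a minimum of 10 counts control cows had 33, 38 and 32 such sequences, and tested cows 25, 30 and 34 (34.3 ± 3.21 against 29.7 ± 4.51, SD, n = 3 each, exact permutation p = 0.3). The direction therefore turned with the minimum count, and neither comparison reached the smallest p the test can give. At the total of the shallowest library, the expected number detected differed by 6.89 between the groups, higher in tested cows (exact permutation p = 0.1). In all, 58 sequences had counts in both groups, 10 in the control group only and 14 in the tested group only.

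**Figure D2:**
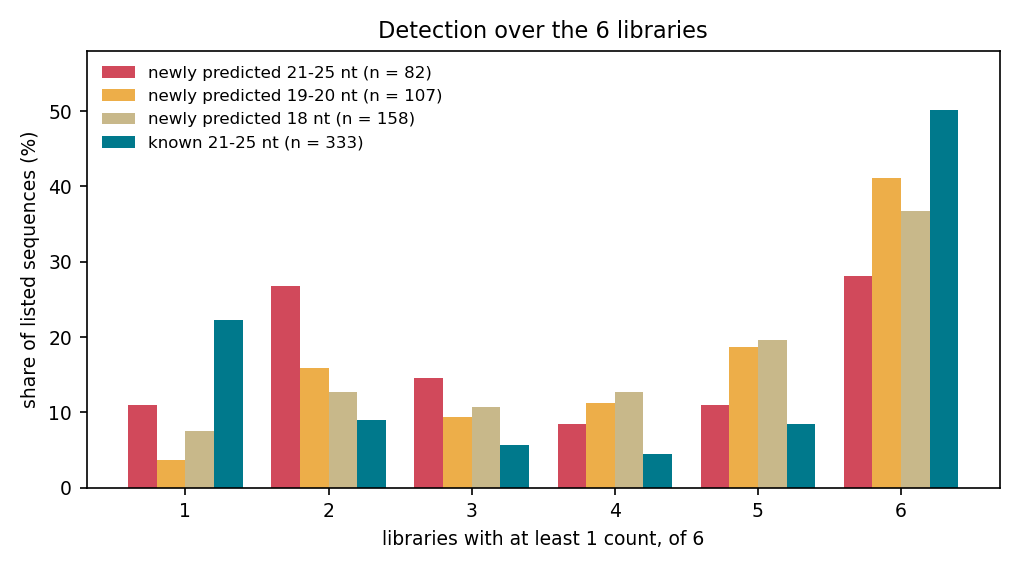
Share of listed sequences (percent, linear axis from 0) by the number of libraries with at least 1 count, for the newly predicted sequences of 21-25 nt, both shorter newly predicted classes and the known miRNAs of 21-25 nt. Of the 82 sequences, 28.0% were found in all 6 libraries, the lowest bar of the 4 classes there.

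After novel34_mature the next most abundant sequence was novel309_mature, which is shown with the most abundant sequences of 18 nt that overlap it. The shared stretch of each is in capitals, the 17 bases shared with novel126_mature being marked in novel309_mature.
novel309_mature: GCTGGCAGGGGCCCCGGaaaga
novel126_mature: gGCTGGCAGGGGCCCCGG
novel314_mature: gaTGGCAGGGGCCCCGGg
It shared 17 bases with novel126_mature and 15 with novel314_mature, and 14 or 15 bases with novel150_mature, novel156_mature and novel177_mature. Its counts were 1344, 816 and 2475 in control cows 1 to 3 and 1228, 1371 and 5378 in tested cows 1 to 3. Control cows had 700, 457 and 1241 counts of novel126_mature, against 1388, 820 and 1139 in tested cows. Those of novel314_mature were 2474, 2106 and 3032 in control cows, and 3398, 2452 and 7290 in tested cows. Tested cow 3 was highest for novel309_mature and novel314_mature, and tested cow 1 for novel126_mature. On the CPM scale (counts relative to a library size corrected by the trimmed mean of M values, TMM), novel309_mature averaged 845 ± 465 in control cows, against 1320 ± 822 in tested cows (SD, n = 3 each), and the groups overlapped. The edgeR log2 fold change of 0.64 rested on single libraries, being 0.024 without tested cow 3, 0.26 without control cow 2 and 1.12, which was called, without control cow 3.

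The other 10 of the 12 most abundant sequences were far rarer, and most varied widely between cows of a group. For novel77_mature the counts were 397, 644 and 68 in control cows 1 to 3 and 497, 204 and 485 in tested cows 1 to 3. Control cows had 311, 529 and 82 counts of novel3_mature, against 405, 103 and 224 in tested cows. Control cow 3 was low for both sequences, as was tested cow 2. Over the 12 sequences, control cow 3 was the lowest control library in 7 by share of counts and tested cow 2 the lowest tested library in 9. In contrast, control cows had 235, 58 and 222 counts of novel19_mature, against 66, 332 and 208 in tested cows, so that control cow 2 was lowest and tested cow 2 highest. An exception was novel139_mature, with 118, 245 and 228 counts in control cows, and 142, 105 and 176 in tested cows (coefficients of variation of the CPM 27.1% and 34.1%). The other 6 were novel29_mature, described below, and novel207_mature, novel301_mature, novel52_mature, novel36_mature and novel37_mature. Of these, novel37_mature, which carries the B box letters, had 115, 1 and 1 counts in control cows, against 64, 13 and 88 in tested cows, and 1 cow held nearly all of the control counts.

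**Figure D3:**
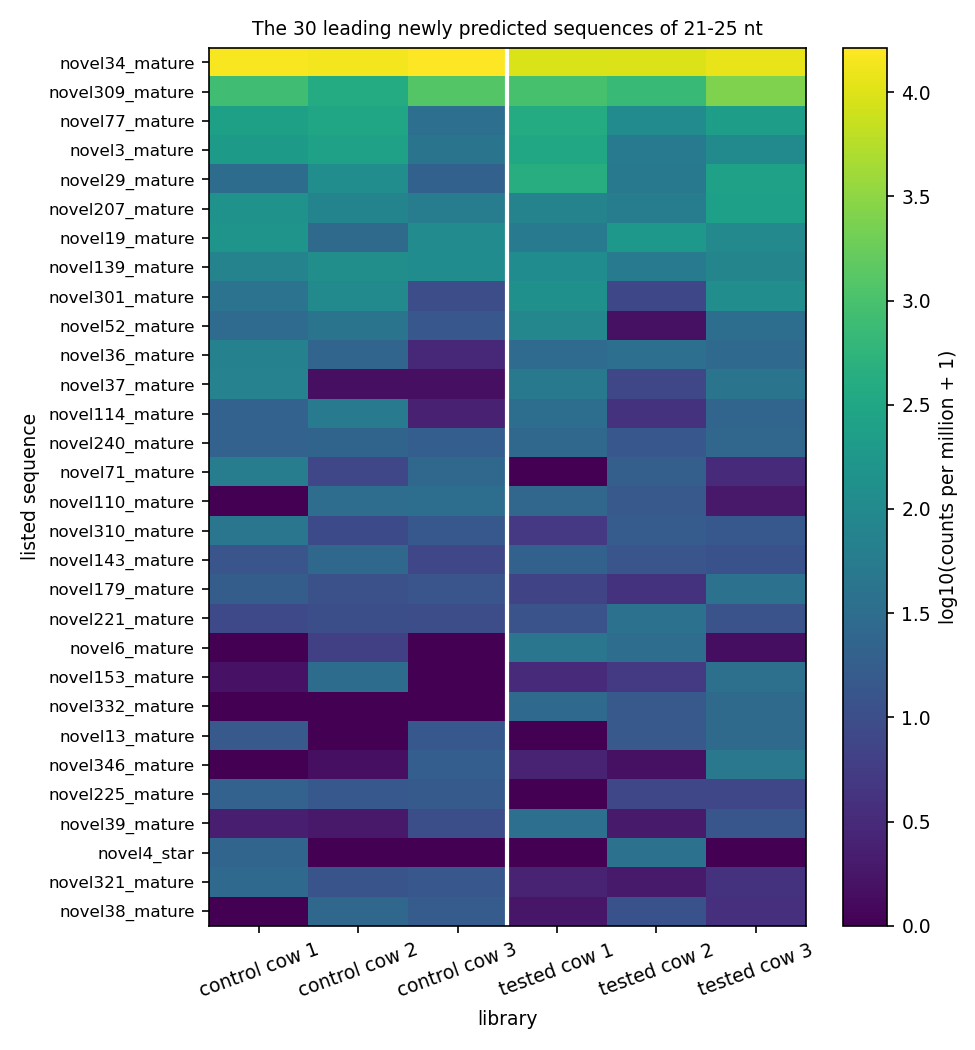
Levels of the 30 most abundant newly predicted sequences of 21-25 nt in the 6 libraries, as log10(CPM + 1), with CPM here relative to the library total without the TMM correction. The row of novel34_mature stood above the rest in every library, and most other rows held both high and low values within a group.

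Of the 82 sequences, 72 reached the minimum of 10 counts over the 6 libraries and were tested, while the other 10 were not. In 16 of the 72 all counts lay in 1 group. The question was which sequences differed between the rations, and a sequence was called when its unadjusted p was under 0.05 and its log2 fold change exceeded 1 in either direction. The edgeR quasi-likelihood test called 3 of the 72 (4.17%), beside 20 of all 623 sequences tested (3.21%). In the tested group 2 were called higher (2.78%, beside 2.09% of all) and 1 lower (1.39%, beside 1.12% of all). The share of the 72 that was called was therefore near that of all sequences tested. After Benjamini-Hochberg adjustment over the 623 sequences edgeR called none of the 72, beside 0.161% of all (1 sequence), the smallest adjusted p being 0.448. At an unadjusted p below 0.05 alone edgeR gave 4 of the 72 (5.56%), beside 4.65% of all. DESeq2 gave 1 of the 72 an adjusted p below 0.05, beside 1.15% of all sequences to which it gave an adjusted p. The median log2 fold change of tested over control was -0.08 for the 72 and 0.07 for all sequences tested, with 35 positive and 37 negative values among the 72 and 333 and 290 among all.

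The called sequences and novel321_mature are shown with the seed, bases 2 to 8, in capitals.
novel332_mature: gATGTGAAacccaggccccga
novel29_mature: cCTGGTCTagtggttaggatttggc
novel56_star: gCCGTGGGacagagtggaaggagg
novel321_mature: tGGGGGCGcgcgggcggggcg
To these, novel321_mature, which edgeR called only after another filter on low counts, was added after its values had been seen.

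The sequence novel332_mature had no count in any control cow and 34, 27 and 60 counts in tested cows 1, 2 and 3. Its tested mean was 22.1 ± 6.52 CPM (SD, n = 3) and its control mean 0. Set against the 3 counts that a control total of 0 allows, it was at least 42.8-fold higher in the tested group. This bound covers counting error only, as amplified reads are not independent molecules. Leaving out 1 library, a step added after the data had been seen, put it between 27.3 (without control cow 2) and 51.7, with 27.4 without control cow 3. The edgeR log2 fold change was 8.36 (SE 2.59, adjusted p = 0.448), a fitted value that depends on the prior count. It was called under all 15 alternative settings, with log2 fold changes from 4.49 (limma) to 8.58 and adjusted p from 0.0129 (DESeq2) to 0.903.

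The sequence novel29_mature, of 25 nt, had 47, 236 and 40 counts in control cows 1 to 3 and 546, 95 and 563 in tested cows 1 to 3. Tested cow 2 was below control cow 2, so the groups overlapped. The control mean was 54.7 ± 51.7 CPM and the tested mean 237.8 ± 187 CPM (SD, n = 3 each), a log2 fold change of 2.12 (SE 0.850, edgeR adjusted p = 0.448). The call was lost without tested cow 1 (log2 fold change 1.39), without control cow 3 (1.72) and in a fit on newly predicted miRNAs alone (1.71), and held in the other 12 of 15 alternatives. Over all 15 the log2 fold change ranged from 1.39 to 3.26, the highest value being that without control cow 2. Tested cow 1 also had the highest summed share of red blood cell (5.72%), white blood cell (0.0422%), liver (0.194%) and skeletal muscle miRNAs (0.00462%) of the 6 libraries, and the part of these in the result was not tested.

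The sequence novel56_star had 22, 45 and 0 counts in control cows 1 to 3 and none in the tested cows. Control cow 3 was thus as low as the tested group. Its level was 11.7 ± 11.0 CPM in the control group (SD, n = 3), at least 21.1-fold above the 3 counts that a tested total of 0 allows, with an edgeR log2 fold change of -7.45 (SE 3.28, adjusted p = 0.448). This bound too covers counting error only. It rested on 2 cows and moved to 10.8 without control cow 2, 13.5 without tested cow 2, 12.5 without tested cow 3 and 32.8 without control cow 3. It was called in 7 of 14 alternatives, and lost its call without control cow 1, without control cow 2 and without each of the tested cows. In these 5 fits the log2 fold change was -7.53 to -6.61. The call was also lost with the replicate block (-6.68) and with limma on log2(CPM + 1), where the log2 fold change was -2.78. The mature arm of the same hairpin had 0, 1 and 22 counts in control cows and none in the tested cows.

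The most abundant sequence, novel34_mature, was at 14427, 13860 and 17883 CPM in control cows 1 to 3 and at 9365, 10201 and 11006 CPM in tested cows 1 to 3. The means were 15390 ± 2177 and 10191 ± 821 CPM (SD, n = 3 each). The log2 fold change was -0.59 (SE 0.163, edgeR adjusted p = 0.448), too small to be called, and it ranged from -0.95 to -0.47 over the alternatives. None of the other sequences that end in CCA was called. By contrast with novel34_mature, novel221_mature was at 7.28, 9.20 and 9.63 CPM in control cows and at 10.9, 37.4 and 10.1 CPM in tested cows, every tested cow being above every control cow. Its log2 fold change was 1.15 (SE 1.60, edgeR adjusted p = 0.881), and it was 0.26 without tested cow 2.

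Control and tested libraries did not overlap in CPM for 7 of the 72 sequences (9.72%), beside 10.8% of all sequences tested. Besides novel34_mature, novel332_mature and novel221_mature these were novel193_mature, novel202_mature, novel225_mature and novel321_mature, which were singled out after their values had been seen. The counts of novel321_mature were 43, 24 and 26 in control cows 1 to 3 and 2, 2 and 7 in tested cows 1 to 3. The edgeR log2 fold change was -3.15 (SE 1.99, adjusted p = 0.538). It was not called, but was called by DESeq2 (-3.29) and by edgeR with the filterByExpr filter (-3.14), 2 of 15 alternatives. Control cows had 32, 28 and 30 counts of novel225_mature, against 0, 13 and 15 in tested cows. For novel193_mature no control cow had a count and the tested cows had 1, 3 and 12, and for novel202_mature each control cow had 1 count and the tested cows had 2, 2 and 11.

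**Figure D4:**
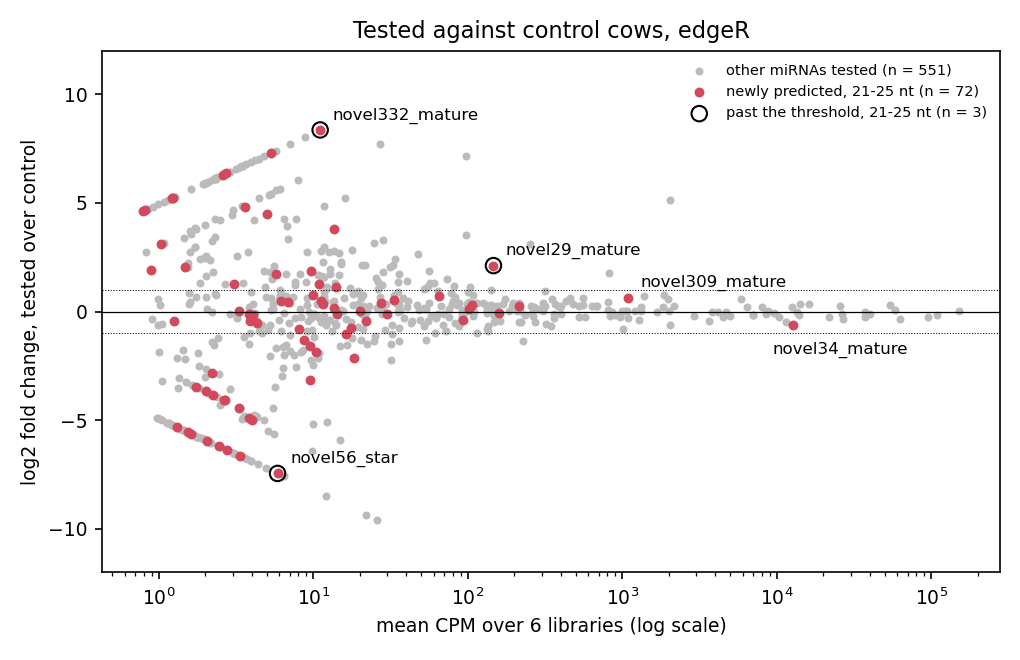
Log2 fold change of tested over control from edgeR against the mean level in CPM (log axis) for the 72 sequences tested (red) and all other miRNAs tested (grey), with the called ones of the 72 ringed and dotted lines at a log2 fold change of 1 and -1. The 2 called sequences above 0 were novel332_mature and novel29_mature, and the 1 below was novel56_star. The highest mean level of the 72 was that of novel34_mature, which lay at -0.59, between the dotted lines.

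None of the 82 sequences lay wholly inside a known bovine sequence listed in the same data. Allowing up to 2 edits (a substitution, insertion or deletion each) against the best stretch of the longer sequence, 7 of 82 (8.54%) resembled a known one, beside 14 of the 107 newly predicted sequences of 19-20 nt (13.1%) and 0 of the 158 of 18 nt. These 7 held 671 counts, 0.394% of those of the 82. The median distance to the nearest known sequence was 6.5 edits for the 82 sequences and 5.0 in both shorter classes, and longer sequences leave room for more edits. At least 7 edits separated 41 of the 82 from any known sequence listed.

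Sequences near a known one are shown in pairs with the known miRNA, the seed in capitals, to show where the pairs differ.
novel82_mature: tGATAATAcaacctgataagt
bta-miR-374a: tTATAATAcaacctgataagtg
novel143_mature: tGCGGGGCagagagcgagacc
bta-miR-423-5p: tGAGGGGCagagagcgagacttt
novel110_mature: tGAGGGGCagagagagagaga
bta-miR-11971: tGAGGGGCagagagtgagaa
novel6_mature: aAAGCCGAatgaactttttggc
bta-miR-2285k: aAAACCGGaatgaactttttg
In the order of these pairs, in the best ungapped placement, with the known miRNA's base first and positions counted from its 5′ end, the differences were T2G for novel82_mature, A3C and T21C for novel143_mature, and T15A and A20G for novel110_mature. The 2 edits of novel6_mature include a gap and are not spelled out. Only novel110_mature kept the seed of its partner, a seed that bta-miR-423-5p has as well. In 3 of these pairs the known miRNA was more abundant, with 21372 counts of bta-miR-374a against 13 of novel82_mature, 239030 of bta-miR-423-5p against 156 of novel143_mature and 766 of bta-miR-2285k against 128 of novel6_mature. In contrast, bta-miR-11971 had 1 count in all, though novel110_mature shared its first 14 bases with bta-miR-423-5p too. The counts of novel110_mature were 0, 64 and 66 in control cows 1 to 3 and 30, 27 and 2 in tested cows 1 to 3, and for novel6_mature control cows had 0, 11 and 0 counts, against 57, 59 and 1 in tested cows. The groups overlapped for both. The other 3 within 2 edits were novel109_mature, novel179_mature and novel202_mature, each near a miRNA of the bta-miR-2284 or bta-miR-2285 families, which are large in cattle. Here novel179_mature had 164 counts against 126 of bta-miR-2284y, novel109_mature 3 against 1 of bta-miR-2284o, and novel202_mature 18 against 22 of bta-miR-2285br.

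A seed shared with any known miRNA listed was present in 9 of 82 (11.0%). Besides novel110_mature these were novel143_mature (shared with bta-miR-744), novel193_mature (bta-miR-543), novel190_mature (bta-miR-504), novel287_mature (bta-miR-6535), novel37_mature (bta-miR-2443), novel60_mature (bta-miR-193a-5p), novel109_mature and novel202_mature, the last pair with members of the bta-miR-2284 and bta-miR-2285 families. A shared seed is a match of 7 letters and no measure of targeting.

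**Figure D5:**
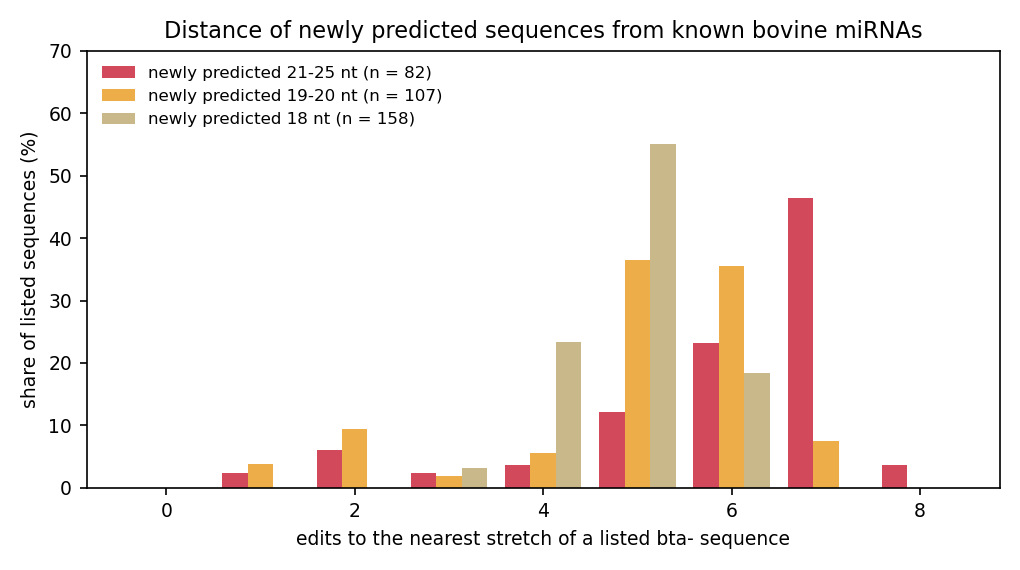
Distance in edits from each newly predicted sequence of 21-25 nt to the nearest known bovine sequence listed, as the percent of each newly predicted class at each distance. Most of the 82 sequences lay 5 to 7 edits away, with 38 at 7 edits.

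Both arms of a hairpin were listed for 14 hairpins with an arm of 21-25 nt, and both arms had that length in 7 of them, while 65 had only 1 arm listed. A library holding counts of both arms was found for 6 of the 14. The star arm had more counts than the mature arm in 4. To show how arms pair, the arms of novel4 are printed with the bases that paired in the predicted duplex in capitals.
novel4_mature: AGAGTTCCCTGaACAGCAAGg
novel4_star: CTTGCTGTcCAGGGAACTCTc
The novel4 arms formed 19 base pairs with a predicted energy of -33.4 kcal/mol. The mature arm had 11, 14 and 0 counts in control cows 1 to 3 and 0, 18 and 0 in tested cows 1 to 3, and the star arm 36, 0 and 0 and 0, 69 and 0, so both arms were present in control cow 1 and tested cow 2. For novel98, 21 bases paired, but no library held both arms. The star arm of the most abundant sequence, novel34_star, had 21 counts, all in control cow 1, and 9 base pairs joined it to novel34_mature. Pairing was about as short in novel84 (10 base pairs) and novel240 (11), and the star arms of several other hairpins were also found in 1 library only.

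Known miRNAs served as a check of the cell types that could contribute to serum. The summed share of red blood cell miRNAs was 1.31% to 2.75% in control cows and 0.827% to 5.72% in tested cows, white blood cell miRNAs 0.0191% to 0.0373% and 0.0119% to 0.0422%, liver miRNAs 0.104% to 0.154% and 0.110% to 0.194%, and epithelial miRNAs (6 of 7 listed) 7.53% to 9.02% and 8.75% to 9.26%. Skeletal muscle miRNAs took 0.000126% to 0.00088% and 0.00026% to 0.00462%. The ranges of the groups overlapped for every list. In serum, less of a sequence per vesicle and fewer vesicles that carry it cannot be told apart.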

How the data were processed

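Serum EV small RNAs of 3 control and 3 tested cows were sequenced. The authors kept reads of 15 to 41 nt and matched them to the bovine genome. They removed transcripts and repeats and annotated other classes of non-coding RNA. They named miRNAs with miRBase and predicted others with miRDeep2. The submitters' processing notes list cutadapt 1.14, Bowtie and the build ARS-UCD1.2, and the counting tool was not given in the sources used here. The authors deposited raw counts, which were used for every value. The deposited values labelled TPM are RPM scaled to clean reads, since the deposited count divided by a constant per library gives each value, and they served only to derive clean reads. The authors also deposited a base mean (a signal), a log2 fold change with its standard error, a ratio, a test score and p-values, which were not used, as was the list of sequences they called.

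Sequences with at least 10 counts in all (623) were fitted with edgeR 4.0.16 (TMM, quasi-likelihood F test, no covariate), in R 4.3.3, with DESeq2 1.42.0 and limma 3.58.1 as alternatives. p-values were adjusted over all sequences fitted. Shares and numbers detected were compared by two-sided exact permutation over libraries with SciPy 1.17.1. Edit distances were computed with edlib 1.3.9.post1 and duplexes with ViennaRNA 2.7.2. Scripts were tested on simulated data. Named sequences were the 12 with the highest mean share, all those called, any with an adjusted p below 0.05 in any fit on all libraries, and those within 1 edit of a known miRNA, of which 1 had too few counts to be fitted. To these were added, after their values had been seen, 5 whose groups did not overlap. The rule for members uses only name and length, but it and the lists were chosen with earlier results of these data known. Cows of equal replicate number showed no sign of pairing (correlations of deviations -0.0581, -0.0476 and -0.019). Cows of unequal number gave -0.0605 to 0.106. With 3 cows per group these values cannot exclude a pairing. Genome positions of the sequences were not analysed here.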

Additional observations from a re-analysis of the deposited data

How the results depend on the processing

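The edgeR calls were recomputed with 9 other settings and without each library in turn. DESeq2 gave an adjusted p below 0.05 to 1 sequence (edgeR 0), and a fit on newly predicted miRNAs alone called 11 of the 72 (15.3%) instead of 3, beside 10.9% of all it tested. The replicate block called 2, losing novel56_star, and 0 after adjustment. Without each library in turn the calls numbered 2 to 3, but novel332_mature alone was called in every such fit. The calls gained were novel37_mature without control cow 1, novel6_mature without control cow 2, novel309_mature without control cow 3, and novel131_mature without tested cow 1 and without tested cow 3. The difference in share of all counts (-0.379 percentage points) became 0.0846 without novel34_mature. The difference in number detected (6) became -0.333 at 5 counts and -4.67 at 10 counts. Sequences like a known miRNA numbered 7 at 2 edits, 2 at 1 edit and 3 over the whole length. Some log2 fold changes not called with all 6 libraries changed sign: with limma novel52_mature (-0.70) and novel36_mature (0.78), with newly predicted miRNAs alone novel77_mature (-0.083), novel207_mature (-0.17), novel19_mature (-0.096) and novel37_mature (-0.0036), and with the replicate block novel52_mature (-0.16) and novel36_mature (0.83). Leaving out 1 library gave log2 fold changes of -1.12 to 0.45 for novel3_mature, -0.64 to 1.21 for novel36_mature, -0.18 to 5.76 for novel37_mature (called only without control cow 1), -0.48 to 0.53 for novel19_mature, -0.32 to 0.78 for novel77_mature, -0.90 to 0.16 for novel82_mature, -0.88 to 1.09 for novel52_mature and -0.45 to 0.72 for novel207_mature. The cause of these changes of sign was not tested. Of 293 values of 20 named sequences under the alternatives, 254 kept direction and side of the threshold. RefSeq miRNA sequences as the reference were not run. The biological coefficient of variation over the sequences fitted was 128.8%, a single value for all levels, and the smallest change detectable at a given count was not measured.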
